A study of Mus musculus with 10 samples.

Results

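The miR-200 family is a set of 5 mature microRNAs, miR-200a-3p, miR-200b-3p, miR-200c-3p, miR-141-3p and miR-429-3p, and was followed here in small extracellular vesicles (sEV) from brown adipose tissue (BAT) and from plasma of C57BL/6J mice. The members were chosen by name, and all 5 are listed among the 679 miRNAs counted in BAT vesicles and among the 436 counted in plasma vesicles. The 10 libraries fall into 4 groups: Sed BAT and Exe BAT with 3 libraries each, and Sed plasma and Exe plasma with 2 each. Exe stands for exercise and Sed is read as the group without training, although every sample's labels, those of Sed included, carry a training schedule (4 weeks with 2 daily sessions of 90 min). The plasma samples are described as wt and the BAT samples carry no genotype, and the labels name no age, sex or number of animals per library. Since they do not state whether each library came from its own animals, the spread behind every p-value could be technical.

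The family is best known from epithelia. Its members repress ZEB1 and ZEB2, transcription factors that switch off E-cadherin and other epithelial genes, and ZEB1 and ZEB2 in turn repress the miR-200 genes, so that high miR-200 goes with the epithelial state and low miR-200 with the mesenchymal one. Brown fat is a mesenchymal tissue, and the vesicles of plasma come from many cell types. A miRNA finds its targets mainly through its seed, bases 2 to 8 counted from the 5′ end.

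The sequences show how close the members are and how the family divides by seed. They are given 5′ to 3′ from RefSeq on GRCm38, with the seed in capitals, grouped by seed.
miR-200b-3p: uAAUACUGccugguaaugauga
miR-200c-3p: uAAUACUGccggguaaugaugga
miR-429-3p: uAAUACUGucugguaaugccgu
miR-200a-3p: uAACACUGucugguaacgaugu
miR-141-3p: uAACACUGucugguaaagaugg
The first 3 share the seed AAUACUG and the other 2 the seed AACACUG, and among the 1679 mature mouse miRNAs of that table no miRNA outside the family carries either. The seeds differ at 1 base (U4C from miR-200b-3p to miR-141-3p, positions counted from the 5′ end). Within a seed group, miR-200b-3p and miR-200c-3p differ by U11G and A22G and by 1 further base at the 3′ end of miR-200c-3p, and miR-200a-3p and miR-141-3p by C17A and U22G. The counting rule is not given in the sources used here, so a read with a mismatch could have been assigned to either of such a pair, and the split within these pairs is uncertain to that extent. From miR-429-3p, miR-200b-3p stands 4 substitutions apart and miR-200c-3p 5.

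The genes lie in 2 clusters that do not follow the seeds. On GRCm38 the hairpins of miR-429 (chr4:156053905-156053987), miR-200a (chr4:156054896-156054985) and miR-200b (chr4:156055681-156055750) lie on the minus strand within 1846 bases, inside the gene of Ttll10 but in none of its exons. They also lie within the noncoding gene Gm13648, where the miR-429 hairpin overlaps an exon. The hairpins of miR-141 (chr6:124717914-124717985) and miR-200c (chr6:124718322-124718390) lie on the minus strand 336 bases apart, between Phb2 and Ptpn6 and within the noncoding gene Gm15884. Each cluster therefore gives members of both seeds.

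BAT libraries held 104064 to 172279 miRNA reads and plasma libraries 1209116 to 1798169. Levels are given as reads per 1000000 listed miRNA reads of a library (RPM) unless a scaled value is named, with exact (Clopper-Pearson) 95% intervals that cover counting error only. The labelled sources were checked by 4 miRNAs known from brown fat (miR-378a-3p, miR-193b-3p, miR-365-3p and miR-455-3p), which took 6.52% to 29.8% of BAT reads, while the 3 of them listed for plasma took 0.0265% to 0.5%. Sed BAT replicate 2 stood apart with 6.52%, against 17.8% in the next library. The red cell miRNA miR-451a ranked 1 in both Sed plasma libraries and 2 in both Exe plasma libraries. The red cell list (miR-451a, miR-144-3p, miR-486a-5p, miR-486b-5p) took 70.1% and 52.8% of Sed reads and 13.9% and 14.8% of Exe reads. Its sum thus moved with the groups, but its members did not move as one. From Sed to Exe plasma miR-451a went from 1885442 to 366230 reads and miR-144-3p from 29 to 10. Going the other way, miR-486a-5p and miR-486b-5p each went from 2348 to 31964. In BAT the brown fat list took 17.8%, 6.52% and 22.8% in Sed and 29.8%, 23.8% and 22.9% in Exe. Most of its reads were of miR-378a-3p, with 56956 in Sed and 101200 in Exe. From Sed to Exe miR-193b-3p went from 3825 to 9351 reads and miR-455-3p from 12 to 39. The other way went miR-365-3p, from 2566 to 1315, so this list did not move as one either. The part of the red cell and brown fat lists in the results below was not tested. In bulk vesicles, fewer vesicles from a cell type and less miRNA per vesicle cannot be told apart.

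In BAT vesicles the family was at the edge of detection. All 5 members together had 44, 16 and 18 reads in the Sed libraries and 9, 12 and 20 in the Exe libraries. The most abundant was miR-200a-3p, with 45 reads over the 6 libraries, and it ranked 218 of 679. Next came miR-200c-3p with 25 reads, miR-429-3p with 21, and miR-200b-3p and miR-141-3p with 14 each. Every member had a read in both groups, but miR-141-3p was at 0 in Sed replicate 2 and Exe replicate 2, and miR-200b-3p in Sed replicate 3.

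In plasma vesicles miR-429-3p had the most reads, 4852 over the 4 libraries (rank 62 of 436), of which 1027 were in Sed and 3825 in Exe. Next by total was miR-200c-3p with 1897 (rank 83), but 1869 of these were in Sed and 28 in Exe. Of the 604 reads of miR-200b-3p, 538 were in 1 Exe library. The lowest were miR-200a-3p with 78 reads and miR-141-3p with 39. Summed over the family, Sed libraries had 1438 and 1621 reads and Exe libraries 780 and 3631.

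**Figure D1:**
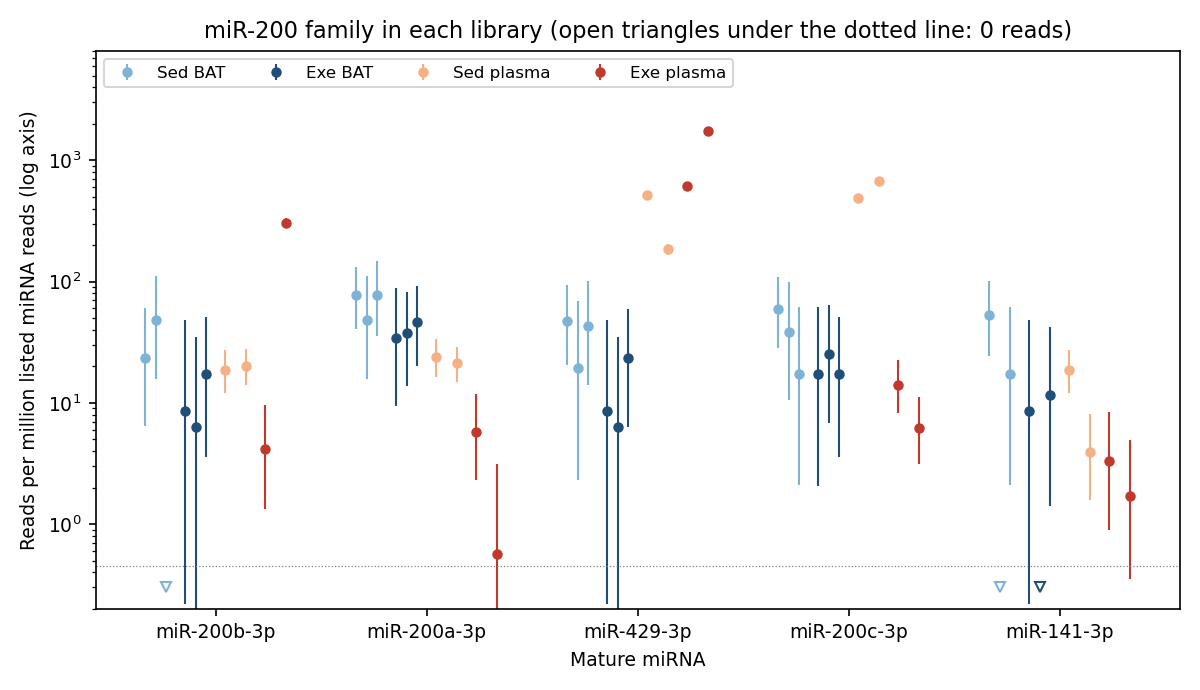
RPM (reads per 1000000 listed miRNA reads, log axis) of each member in each of the 10 libraries, coloured by group; bars are exact 95% counting intervals, and open triangles mark libraries with 0 reads. In Sed plasma miR-200c-3p sits at 492 and 672, and in Exe plasma at 14.1 and 6.23, whereas miR-429-3p is high in all 4 plasma libraries.

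The chr4 cluster is described first. For miR-429-3p the plasma levels were 519 and 184 RPM in Sed and 618 and 1743 in Exe, and in BAT they were 47.2, 19.2 and 43.1 in Sed and 8.58, 6.30 and 23.2 in Exe. All 4 plasma libraries lay above all 6 BAT libraries. The order of the group means was Exe plasma (1180 ± 796, SD, n = 2), Sed plasma (351 ± 237, n = 2), Sed BAT (36.5 ± 15.1, n = 3) and Exe BAT (12.7 ± 9.18, n = 3), where the Sed and Exe BAT libraries overlapped and the plasma groups did not on this scale.

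The level of miR-200b-3p was 18.6 and 20 RPM in Sed plasma and 4.14 and 305 in Exe plasma. The Exe plasma libraries thus lay on either side of the Sed libraries, and replicate 2 alone set the group mean of 154 ± 212 (SD, n = 2). In BAT the levels were 23.6, 48.0 and 0 in Sed and 8.58, 6.30 and 17.4 in Exe, which overlapped with each other. Sed BAT also overlapped with both plasma groups, while every Exe BAT library lay under the Sed plasma libraries by a margin well inside the counting intervals.

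For miR-200a-3p, the neighbour of miR-429-3p in the genome, the order depended on the scale. In RPM it was highest in Sed BAT, at 76.8, 48.0 and 77.5 RPM, followed by Exe BAT at 34.3, 37.8 and 46.4, Sed plasma at 23.9 and 21.1 and Exe plasma at 5.79 and 0.566. On this scale no neighbouring groups overlapped, although single libraries rest on 1 to 38 reads. Counting intervals overlapped between the BAT groups and between Exe BAT and Sed plasma, but not between the plasma groups. On the joint TMM scale of the 4 groups Sed plasma was highest instead, at 76.6 and 74.4 CPM against 45.1, 22.9 and 45.9 in Sed BAT, while Exe plasma was still lowest at 10.4 and 0.83.

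In the chr6 cluster, miR-200c-3p had 492 and 672 RPM in Sed plasma against 14.1 and 6.23 in Exe plasma. In BAT it had 59.1, 38.4 and 17.2 in Sed and 17.2, 25.2 and 17.4 in Exe. Sed plasma stood alone, and the BAT groups overlapped, while Exe plasma lay under every BAT library in RPM. The BAT values rest on 2 to 10 reads per library. On the joint TMM scale miR-200c-3p averaged 17.2 CPM in Exe plasma, 11.9 in Exe BAT and 21.1 in Sed BAT. The place of Exe plasma for miR-200c-3p thus depended on the scale. Its neighbour miR-141-3p was low everywhere, with 53.1, 0 and 17.2 RPM in Sed BAT, 8.58, 0 and 11.6 in Exe BAT, 18.6 and 3.89 in Sed plasma and 3.31 and 1.70 in Exe plasma. Apart from the plasma groups, its groups overlapped.

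The make-up of the family differed between sources and, in plasma, between groups. In BAT no member took over 50% of the family reads of a library, and miR-200a-3p took 34.6% of the pooled Sed reads and 43.9% of the pooled Exe reads. In Sed plasma miR-200c-3p took 45.9% (43.3 to 48.5) and 74.6% (72.4 to 76.7) of the family reads and miR-429-3p 48.4% and 20.4%. In Exe plasma miR-429-3p took 95.8% (94.1 to 97.1) and 84.8% (83.6 to 85.9), while miR-200c-3p took 2.18% and 0.303%. Per read of miR-200c-3p there were 1.05 and 0.274 reads of miR-429-3p in Sed plasma and 43.9 and 280 in Exe plasma, against 0.25 to 2.5 in the BAT libraries. The 4 plasma values do not overlap between groups, and no test was made of this ratio.

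**Figure D2:**
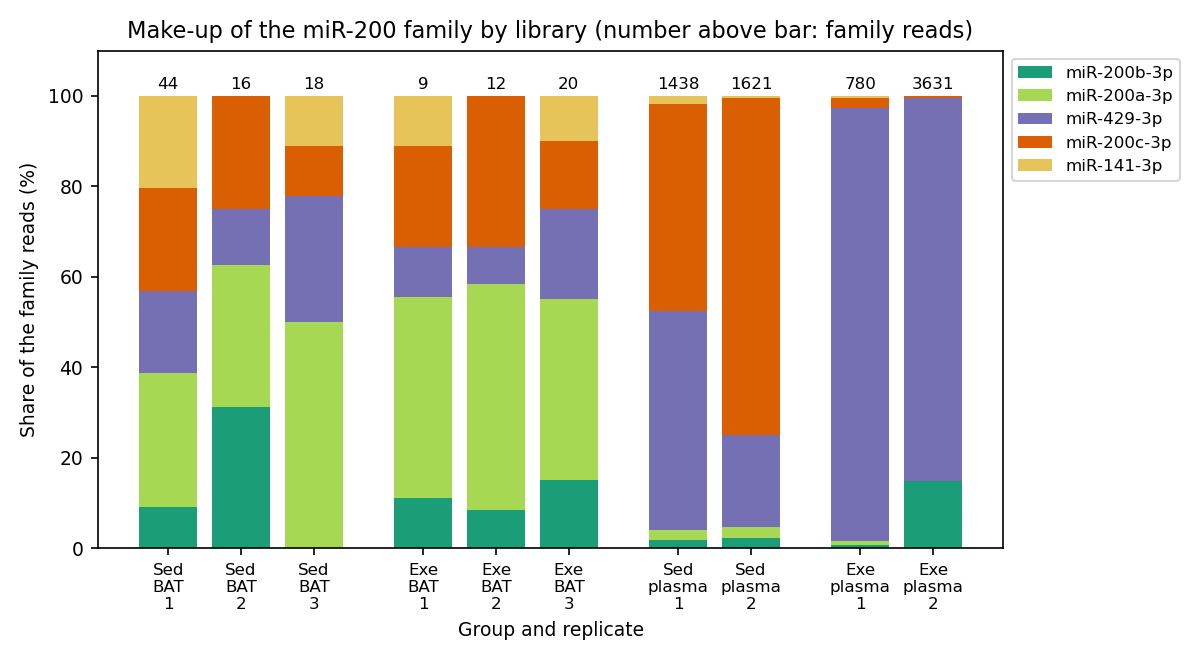
Share of the family reads (%) taken by each member in each library, with the number of family reads above the bar. Orange (miR-200c-3p) takes 45.9% and 74.6% in Sed plasma and 2.18% and 0.303% in Exe plasma, where purple (miR-429-3p) takes 95.8% and 84.8%.

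By seed, the plasma family was almost wholly of the AAUACUG kind, at 96.0% and 97.2% of family reads in Sed and 98.6% and 99.9% in Exe. In BAT that seed took 50%, 68.8% and 38.9% in Sed and 44.4%, 50% and 50% in Exe. No BAT library came near the plasma libraries, though with 9 to 44 reads each the BAT intervals are wide, the highest reaching 89.0%. By gene cluster, the chr4 share was 52.4% and 25% in Sed plasma and 97.3% and 99.6% in Exe plasma, and 56.8% to 77.8% in BAT. The leading pair of Sed plasma, miR-200c-3p and miR-429-3p, share a seed and come from different clusters. In pooled Exe plasma reads miR-429-3p was followed by miR-200b-3p (12.3%, nearly all from replicate 2), which shares both its seed and its cluster.

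Members made from neighbouring hairpins did not keep a fixed ratio. Per read of miR-200a-3p there were 21.8 and 8.71 reads of miR-429-3p in Sed plasma and 107 and 3078 in Exe plasma, against 0.167 to 0.615 in BAT. Per read of miR-200b-3p there were 27.8, 9.19, 149 and 5.72 reads of miR-429-3p in the same plasma libraries. In plasma miR-429-3p was thus the leading product of its cluster in all 4 libraries, and in BAT miR-200a-3p had more reads than miR-429-3p in all 6.

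The first question of the study design was what exercise did to BAT vesicles. None of the 5 members, at 14 to 45 reads each, was called, which does not show that they were unchanged. None passed the filter on low counts, which kept 199 of 679 miRNAs, so their fold changes come from a fit without the filter. There edgeR called 8.54% of 679 miRNAs (with the filter, 22.6% of 199) and 0 of 5 members, also at an unadjusted p under 0.05. The log2 fold changes of Exe over Sed were -0.66 ± 0.56 (SE) for miR-200a-3p, -0.87 ± 0.97 for miR-200b-3p, -1.35 ± 0.83 for miR-429-3p, -0.85 ± 0.74 for miR-200c-3p and -1.77 ± 1.03 for miR-141-3p. The smallest adjusted p was 0.387, for miR-141-3p.

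All 5 BAT values lay below 0, with a median of -0.87, where the median over all 679 miRNAs was -0.06 and 51.7% of them lay below 0. They stayed below 0 with 4 other scalings and with each library left out, which took miR-141-3p from -2.56 to -0.23. The summed members had 260, 154 and 155 RPM in Sed and 77.2, 75.6 and 116 in Exe, groups that did not overlap on this scale (means 190 ± 60.9 and 89.6 ± 22.9, SD, n = 3 each). After TMM scaling, which corrects for the make-up of each library, they overlapped, since Sed replicate 2 was at 121 CPM (RPM after scaling) and Exe replicate 3 at 126. Leaving out Sed replicate 2, with its low brown fat share, gave a Sed mean of 207 RPM, and all 5 members were still below 0, from -2.36 for miR-141-3p to -0.30 for miR-200b-3p. Of single members, groups did not overlap for 1 of 5 on the unscaled shares (miR-200a-3p) and for 0 of 5 on the TMM scale, where 10.9% of all miRNAs had every Exe library under every Sed library. Over the groups, 78 family reads in Sed stood against 41 in Exe, a ratio of 2.04 on the TMM scale (exact 95% counting interval 1.38 to 3.05, which leaves out the spread between libraries).

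The second question was what exercise did to plasma vesicles. There the members went apart. On the TMM scale miR-200c-3p was at 767 and 685 CPM in Sed and 9.48 and 5.89 CPM in Exe, a log2 fold change of -6.55 ± 2.0 (SE, n = 2 per group) with an adjusted p of 0.0915. The groups lay far apart, yet the value did not pass, in a test that called 0% of 182 miRNAs (without the filter, 4.44% of 383). Of the 4 members that passed the filter, 0 were called and 1 (miR-200c-3p) had an unadjusted p under 0.05 (0.0166), as had 33% of the 182. DESeq2 and limma-voom each called 1, again miR-200c-3p (adjusted p = 7.2e-08 and 0.0274). The share of all miRNAs that these tools called is not given here, so their count of members has no background beside it.

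Below 0 as well were miR-200a-3p at -3.68 ± 1.78 (adjusted p = 0.204), from 70 reads in Sed to 8 in Exe, and miR-141-3p at -2.90 ± 3.23 in the fit without the filter, from 32 reads to 7. Above 0 were miR-429-3p at 1.05 ± 1.52 (adjusted p = 0.641) and miR-200b-3p at 2.55 ± 2.42 (adjusted p = 0.493). On the TMM scale the groups of miR-429-3p overlapped, with 809 and 188 CPM in Sed and 416 and 1647 in Exe. For miR-200b-3p the value was -2.54 without Exe replicate 2, so that 1 library set its direction. In all, 3 of 5 members had both Exe libraries under both Sed libraries (miR-200c-3p, miR-200a-3p and miR-141-3p), as had 24.3% of all miRNAs with a read. The family sum on the TMM scale was 1671 and 918 CPM in Sed and 435 and 1943 in Exe, so that the Sed libraries lay between the Exe libraries.

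**Figure D3:**
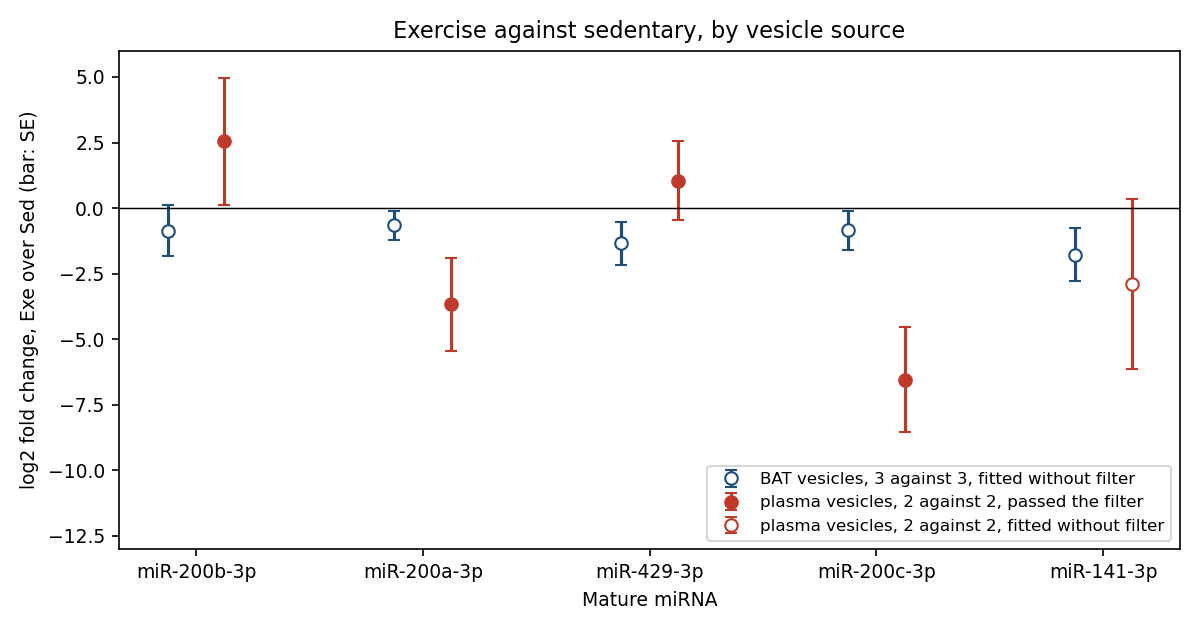
Log2 fold change of Exe over Sed with its SE for each member, in BAT (blue, 3 libraries against 3) and plasma (red, 2 against 2); open circles come from the fit without the filter on low counts. The BAT values lie between -1.77 and -0.66, while the plasma values run from -6.55 for miR-200c-3p to 2.55 for miR-200b-3p.

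The joint fit of the 4 groups asked whether the exercise effect differed between sources. It called miR-200c-3p, whose effect in plasma minus that in BAT was -6.02 ± 1.26 (log2, SE, adjusted p = 0.00629). This member did not pass the filter in BAT alone and entered the joint fit through Sed plasma libraries, where it is high. Its call is therefore no support by itself. With the filter, miR-200c-3p is 1 of 68 miRNAs called, 29.1% of 234. Without the filter 1 of 5 members was called, again miR-200c-3p, beside 15.7% of 394 miRNAs, so the count of members is near the background. The other differences were -3.10 ± 1.36 for miR-200a-3p (adjusted p = 0.103, but 0.0124 with DESeq2, 0.0212 with upper-quartile factors and 0.00836 without Exe plasma replicate 1) and 2.02 ± 1.27 for miR-429-3p (adjusted p = 0.234). The call of miR-200c-3p held under all 21 alternatives run, with values from -7.12 to -4.88 and adjusted p from 6.1e-09 to 0.0342. They included limma-voom fitted with separate spreads for BAT and plasma (-6.34, adjusted p = 0.0258).

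The same fit compared plasma with BAT vesicles, a comparison in which source, table and any sequencing run cannot be told apart. In Sed libraries miR-200c-3p was higher in plasma by 6.51 ± 0.92 (log2, SE, adjusted p = 0.000446), at 1581 and 2367 CPM on the joint scale against 34.7, 18.3 and 10.2 in BAT. Also higher in plasma was miR-429-3p, by 5.77 ± 0.95 (adjusted p = 0.00115). Both calls held under all 21 alternatives, but their size depended on the setting. Values ran from 3.89 to 6.84 for miR-200c-3p and from 3.23 to 6.14 for miR-429-3p. Since no member passed the filter in BAT alone, these 2 entered the fit through plasma libraries where they are high, so the 2 of 3 tested members called, beside 20.1% of 234 miRNAs (42.3% in either direction), are no support. Without the filter 2 of 5 members were called higher, beside 14.2% of 394 miRNAs. The value of miR-200a-3p was 0.98 ± 0.91 (adjusted p = 0.385), but -1.59 with library size alone, so no direction is given.

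In Exe libraries miR-429-3p remained higher in plasma, by 7.79 ± 1.05 (adjusted p = 0.000321, 25.6% of 234 called higher and 66.7% in either direction), and this held under all 21 alternatives. As said for Sed, this member entered the fit through plasma libraries where it is high, so the call is no support by itself. For miR-200c-3p the value was 0.49 ± 0.84 (adjusted p = 0.639), with a sign that changed between scalings. For miR-200a-3p it was -2.12 ± 1.03 (adjusted p = 0.0912), below 0 in all 18 alternatives. It was called lower with DESeq2, upper-quartile factors, library size alone, limma-voom and without the 3 most abundant miRNAs (5 of 10 other settings, lowest adjusted p = 0.00334), and without Exe plasma replicate 1 (-4.45, adjusted p = 0.00488). In the fit without the filter miR-200b-3p was higher in plasma by 5.05 ± 1.73 (adjusted p = 0.0271, where 18.8% of 394 miRNAs were called higher). It was at 0.10 without Exe plasma replicate 2, and the call was also lost without any 1 of the Exe BAT libraries (adjusted p = 0.062, 0.07 and 0.0641), with library size alone (0.0645) and with a mean of at least 50 counts (0.0853). These comparisons share their libraries with those above and with each other. The median over all tested miRNAs was -1.21 in Sed and -0.90 in Exe, and with library size alone -3.84 and -2.43.

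The other arm of each hairpin, the 5p strand that is usually discarded, was next examined. Both miR-200a-5p and miR-200c-5p were listed in both sources and miR-200b-5p in plasma only. Under these names, miR-141-5p and miR-429-5p were listed in neither source. The 5p strand of miR-200b had 14 and 29 reads in Sed plasma, which is 56.0% and 80.6% of the reads of its 3p partner. In Exe plasma it had 1 and 0 reads, beside 5 and 538 of miR-200b-3p. The count of 0 allows up to 0.558% of the 3p reads in Exe replicate 2, so the library with the most miR-200b-3p had almost none of the opposite strand. The fitted change of miR-200b-5p was -5.53 ± 1.71 (adjusted p = 0.0915). In plasma miR-200a-5p had 15 reads in Sed replicate 1 and 0 in the other 3 libraries, and miR-200c-5p had 0 in all 4. In BAT these 2 strands had 2 reads and 1 read in all.

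Each plasma read count is accompanied by another whole number, and how it was made is not given in the sources used here. Its relation to the reads moved with the groups. For miR-200c-3p there were 7.25 and 5.73 reads per unit in Sed and 1 in both Exe libraries, and for miR-429-3p 1.21 and 7.88 in Sed and 1.01 and 1.02 in Exe. Over all miRNAs with at least 10 reads the median was 3.2 and 6.18 in Sed and 1.02 and 1.01 in Exe, so the ratio moved with the groups over the whole table. Not every member lay near that median: in Sed replicate 1 miR-429-3p was under the 10th percentile of all miRNAs (1.23) and miR-200b-3p at 8.33 over the 90th (7.45), and in Sed replicate 2 miR-141-3p at 1.4 was under the 10th (2.64). With these numbers in place of the reads, miR-200c-3p was at -6.46 (adjusted p = 0.315), miR-200a-3p at -3.85, miR-429-3p at 0.89 and miR-200b-3p at 3.10.

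**Figure D4:**
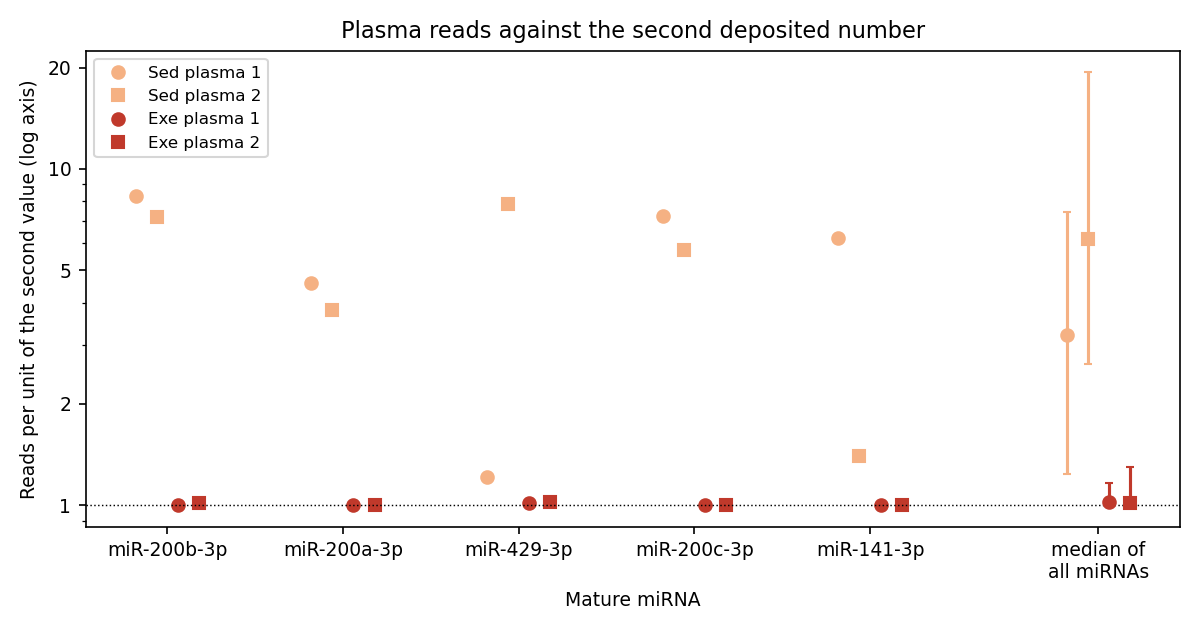
Reads per unit of the second deposited number (log axis) for each member in the 4 plasma libraries, with the median and the range from the 10th to the 90th percentile over all miRNAs with at least 10 reads at the right. Exe libraries lie at or near 1 and Sed libraries between 1.21 and 8.33.

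Other epithelial miRNAs were compared from a list of 7: miR-203-3p, miR-205-5p and miR-31-5p of skin and other lining epithelia, the neighbours miR-182-5p, miR-183-5p and miR-96-5p, and miR-375-3p, which endocrine cells and gut epithelium also make. In BAT 1 of the 4 tested fell, miR-96-5p, from 81, 134 and 73 Sed reads to 21, 31 and 29 Exe reads (-1.94 ± 0.30, adjusted p = 0.00471), and 0 rose, where 13.1% of 199 miRNAs fell. The list took 0.145%, 0.371% and 0.202% of reads in Sed BAT and 0.142%, 0.178% and 0.111% in Exe BAT. Every one of the 7 had a read in BAT, led by miR-203-3p with 561.

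In plasma edgeR called 0 of 6 tested, of which 5 had an unadjusted p under 0.05, as had 33% of all 182 miRNAs tested. DESeq2 and limma-voom each called 3 lower (miR-203-3p, miR-205-5p and miR-31-5p) and 1 higher (miR-375-3p). The share of all miRNAs that these tools called is not given here, so their counts are no result about the list. Like miR-200c-3p, miR-205-5p (Sed 228 and 284 reads, Exe 0 in both), miR-31-5p (Sed 375 and 736, Exe 4 and 2), miR-203-3p (Sed 97 and 268, Exe 0 and 2), miR-182-5p (Sed 8 and 83, Exe 0 in both) and miR-96-5p (Sed 19 and 59, Exe 1 and 0) had every Exe library under every Sed library. The same held for 24.3% of the 383 miRNAs with a read. Going the other way was miR-375-3p, with Sed counts of 123 and 75 against Exe counts of 23766 and 43260, which carried the list from 0.0644% and 0.0933% of reads to 1.97% and 2.56%. As with miR-200b-3p, miR-183-5p was high in Exe replicate 2 alone, with 1925 reads against 1 in replicate 1. In the joint fit the exercise effect of 5 of the 7 was lower in plasma than in BAT and that of 1, miR-375-3p, higher (background 16.7% lower and 12.4% higher). Only 4 of the 7 had passed the filter in BAT alone. Left out there were miR-205-5p, miR-31-5p and miR-375-3p, with 27, 46 and 5 BAT reads. The first and second of these are high in Sed plasma and the last in Exe plasma, so these counts are no support by themselves. What part vesicles of other epithelial cells have in the family's values was not tested.

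The 5 miRNAs outside the family whose profile over the 10 libraries was most like that of the summed members were miR-146a-5p, let-7i-5p, miR-451a, miR-7a-5p and miR-652-3p. Likeness was the mean absolute difference between log2(CPM + 10) profiles, each centred on its own mean, and was 0.46, 0.63, 0.81, 0.87 and 0.92 for these, where the median of 331 candidates was 2.71. All 5 share with the summed members a higher level in plasma than in BAT, a trait that follows from choosing them by likeness to that sum. The closest, miR-146a-5p, had 171 to 320 reads in BAT libraries and 13954 to 26464 in plasma libraries. Among the members themselves, miR-200a-3p and miR-141-3p, which share a seed but not a cluster, were the closest pair (0.60), and miR-200a-3p and miR-429-3p, which share a cluster, were the farthest (2.90). The closest pair had the fewest plasma reads of the members, 78 and 39. Since the added 10 CPM damps differences at low levels, their closeness is no evidence of shared behaviour.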

How the data were processed

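For each vesicle source the authors deposited a table of read counts, with miRNAs in rows and libraries in columns. The BAT table also holds RPM values deposited by the authors, which rest on library totals other than the listed reads and entered only an alternative. The plasma table holds a second whole number, used only as an alternative. Per the labels' protocols, RNA was taken from vesicles with Trizol and libraries followed a standard Illumina protocol. The submitters' processing notes list Bowtie 0.12.2, mm8 and mm9 without saying what each was used for. How reads were counted is not given in the sources used here.

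Counts were tested with edgeR 4.0.16 (R 4.3.3): quasi-likelihood test, TMM scaling, filterByExpr, robust dispersions, Benjamini-Hochberg adjustment over all miRNAs tested and a threshold of 0.05. Sources were fitted apart, and jointly over the 394 miRNAs in both tables. The SE is the log2 fold change over the square root of F. Members left out by the filter were fitted without it. Alternatives used DESeq2 1.42.0, limma 3.58.1 (voom), other scalings and filters and each library left out. The scripts were tested on simulated data. RPM in the text means reads per 1000000 listed reads, computed from the counts. Shares used Python 3.11.15 with scipy 1.17.1, and plots matplotlib 3.10.9. A floor of 3 counts stands for a count of 0. PCR copies are not independent molecules, so intervals and floors cover counting error only.

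Beside the marker lists of brown fat and red cells, the text names the 5 members, their other arms, the 7 listed epithelial miRNAs and the 5 most similar miRNAs with at least 10 reads in all libraries together. The members and lists were chosen with earlier results of these data known. Sequences and coordinates are from RefSeq (GRCm38, 605 of 721 names matched, all 5 members among them) and gene context from GENCODE M21.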

Additional observations from a re-analysis of the deposited data

Results flagged for a closer look

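A test of the difference itself called the exercise effect on miR-200c-3p different between vesicle sources, at -6.02 (log2, plasma minus BAT). The member entered that fit through Sed plasma libraries, where it is high, so the call is no support by itself. In plasma the reads were 660 and 1209 in Sed against 17 and 11 in Exe, and in BAT they were 10, 4 and 2 against 2, 4 and 3.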

How the results depend on the processing

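Members called were 0 in BAT under all 16 alternatives, but in most of these the filter left no member to test. All 5 were tested only without the filter, and miR-200a-3p also entered some fits with 1 library left out. The count of 0 is therefore no sign that the BAT result is stable. In plasma 0 became 1 with DESeq2, limma-voom and a mean of at least 50 counts, and stayed at 0 with each library left out. For plasma against BAT in Sed libraries 2 were called under all 21 alternatives. In Exe libraries 1 became 2 with DESeq2, upper-quartile factors, library size alone, limma-voom, no filter and without the 3 most abundant miRNAs, and ranged from 1 to 3 with 1 library left out (3 without Exe plasma replicate 1, 2 without either Sed plasma library). For the difference of effects 1 became 2 with DESeq2 and upper-quartile factors, and ranged from 1 to 2 with 1 library left out (2 without Exe plasma replicate 1). Calls over all miRNAs ranged from 16 to 58 in BAT (reported: 45), 0 to 57 in plasma (0), 70 to 152 in Sed (99), 82 to 206 in Exe (156) and 25 to 119 for the difference (68). In Exe the reported fit already called 66.7% of 234 miRNAs. Since the share of all miRNAs called is not given here for each setting, changes in the count of members have no background and are no result about them.

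Signs changed as follows. In Sed, plasma against BAT, library size alone gave -1.59 for miR-200a-3p and, without the filter, -0.30 for miR-200b-3p and -1.13 for miR-141-3p. In Exe, miR-200c-3p was at -0.25 with DESeq2, -0.79 with upper-quartile factors, -0.99 with library size alone and -0.76 with a mean of at least 50 counts. With 1 library left out the range was -0.42 to 0.70 for miR-200c-3p in Exe, -0.64 to 0.57 for miR-141-3p in Exe (reported: -0.02; 0.14 without any 1 Sed BAT library, 0.37 without Exe BAT replicate 1, 0.46 without Exe plasma replicate 2), -0.28 to 2.59 for miR-141-3p in Sed, -2.45 to 0.25 for its difference of effects, -2.54 to 3.69 for miR-200b-3p in plasma and -2.01 to 4.15 for its difference of effects. The causes were not tested.

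With the replicate number as a block, members called were 0 in plasma, 2 in Sed, 1 in Exe and 1 for the difference. In BAT they were 0, where the filter left no member to test. All calls went from 45 to 25 in BAT and from 0 to 7 in plasma. Same-numbered libraries did not deviate together (r of -0.13 to 0.01 in BAT and -0.04 in plasma), and in BAT not every library correlated best with its own number. In plasma, with 2 libraries per group centred on their mean, the correlations can differ only in sign. With so few libraries this check cannot decide whether the numbers pair the samples. Alternatives chosen after seeing the data were limma-voom with separate spreads for BAT and plasma, and the scalings and left-out libraries without the filter. Depth limits BAT most: a floor of 3 counts is 17.4 to 28.8 RPM there, near the level of most members, against 1.67 to 2.48 in plasma.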
